A study of Mus musculus with 10 samples.

Results

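The genes described here are 44 cell cycle and proliferation genes, taken by symbol from a fixed list and read from the reverse-strand counts of 10 bulk RNA-seq libraries of macrophages sorted from mouse melanomas. All 44 were found among the 55359 gene identifiers, and all 44 passed the filter on low counts, with 14374 genes tested in all. They fall into 9 DNA replication genes (the helicase subunits Mcm2, Mcm3, Mcm4, Mcm5, Mcm6 and Mcm7, the sliding clamp Pcna, and the ribonucleotide reductase subunits Rrm1 and Rrm2), 8 other replication genes, 18 mitotic genes, the proliferation marks Mki67 and Top2a, 4 cyclins of G1 and S phase, and 3 transcription factors. The macrophages were isolated by flow cytometry for F4/80, a surface glycoprotein of mouse macrophages encoded by Adgre1, from Braf-mutant melanomas described as resistant or rebound. All mice were male and received BRAF and MEK inhibitors every day until the tumours were taken; ages are not stated in the labels. The 5 control libraries came from mice with the genotype Ccr2RFP/+, so the controls also carry the RFP allele, and the 5 Ccr2 knockout libraries from Ccr2RFP/RFP mice. Ccr2 is the chemokine receptor that lets monocytes leave the bone marrow and enter inflamed tissue, so the comparison asks how tumour macrophages differ when that route is impaired. Nothing in the labels ties each library to its own animal, and the p-values below therefore reflect only how much these samples vary, which may be technical variation.

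A dividing cell copies its DNA in S phase and separates the copies in mitosis, and different genes serve the 2 stages. Replication genes such as the Mcm helicase, which opens the DNA double strand, are switched on around the entry into S phase by the E2F factors, while mitotic genes such as Cdk1 and the cyclin B genes are expressed later, in G2 and mitosis, through FOXM1 and the MYBL2-containing complex. Circulating monocytes divide little, whereas many tissue macrophages can renew themselves by local division.

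Promoter sequences are shown for 4 genes because the E2F and CHR words given below were each more frequent in the promoters of one stage than of the other. The 4 are Mcm6 for replication, Pcna as a replication gene without an E2F word, Cdk1 for mitosis, and Mki67 as the most widely used proliferation mark. Each sequence is the 120 bases that end just before the RefSeq transcription start on GRCm38.p6, read 5′ to 3′ on the strand of the gene. They lie at chr1:128359706-128359825 (Mcm6), chr2:132253181-132253300 (Pcna), chr10:69352913-69353032 (Cdk1) and chr7:135716380-135716499 (Mki67), all on the minus strand. Capitals mark matches, on either strand, to 4 E2F-type words (TTTGGCGC, TTTCCCGC, TTTCGCGC and TTTGCCGC), to the CHR word TTTGAA, known from mitotic promoters, and to CCAAT, which reads ATTGG on the other strand.
Mcm6: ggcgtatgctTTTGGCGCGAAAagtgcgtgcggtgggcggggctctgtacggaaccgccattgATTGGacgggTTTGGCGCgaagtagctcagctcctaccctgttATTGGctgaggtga
Pcna: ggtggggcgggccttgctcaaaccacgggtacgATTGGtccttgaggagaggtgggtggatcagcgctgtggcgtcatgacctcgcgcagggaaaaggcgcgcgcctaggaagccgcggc
Cdk1: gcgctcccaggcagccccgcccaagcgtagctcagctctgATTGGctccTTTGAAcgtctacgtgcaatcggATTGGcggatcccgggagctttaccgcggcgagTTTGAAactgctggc
Mki67: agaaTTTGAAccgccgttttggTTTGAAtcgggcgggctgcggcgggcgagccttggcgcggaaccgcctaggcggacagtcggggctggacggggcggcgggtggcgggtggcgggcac

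The Mcm6 stretch holds 3 E2F words, of which 2 overlap on opposite strands in the first capital run, and 2 CCAAT words. The Pcna stretch holds 1 CCAAT word and 0 E2F words, and its wider window of 300 bases holds 0 E2F words too. The Cdk1 stretch holds 2 CHR and 2 CCAAT words, and the Mki67 stretch 2 CHR words. Over that window in the RefSeq table (250 before the start and 50 after it), 34 of the 44 genes had an entry. An E2F word stood in 8 of 14 replication promoters (57.1%, over both replication groups) and in 1 of 15 mitotic promoters (6.67%), that of Cdk1, against 4.58% of the 10607 tested genes with a promoter entry. The CHR word stood in 10 of 15 mitotic promoters (66.7%) and in 2 of 14 replication promoters (14.3%), against 14.7% of all tested genes. CCAAT was common everywhere, in 13 of 15 mitotic promoters, 10 of 14 replication promoters and 42.8% of all tested genes. These are counts of letters and not of bound sites.

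Ccr2 itself separated the groups, with 59.0 to 177 CPM (read counts scaled to each library's TMM-adjusted total) in control and 3.23 to 6.28 CPM in knockout libraries. The F4/80 gene Adgre1 stood at 1704 to 1981 CPM in controls and 1562 to 2020 CPM in knockout libraries, and all 12 macrophage markers were detected. Of the 12, 6 were higher and 6 lower in knockout libraries. Only Cd68 had an edgeR adjusted p under 0.05 (0.0260), at 794 to 916 CPM in controls and 1041 to 1341 CPM in knockout libraries. The sums of the 12 were 28042 to 29403 CPM in controls and 24632 to 35870 CPM in knockout libraries. The libraries held between 34639808 and 43360206 counts in genes, and no member had fewer than 81 counts in any library (Ccne2 in control library 5). Control libraries 1 and 2, and likewise 3 and 4, were closer to each other than any other pair, with a median chi-square over genes of 2.75 and 2.66 against 5.71 to 23.5 for the other pairs. Control library 5 stood at 9.99 to 13.2 from the other controls, and the close control pairs stood at 8.14 to 8.79 from each other. Among controls, library 5 had the highest sums of neutrophil markers (581 CPM against 163 to 403) and classical monocyte markers (6101 CPM against 2232 to 2569, with Fn1 the most abundant).

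None of the 44 genes passed the threshold of 0.05 on the adjusted p in edgeR's quasi-likelihood test, in a comparison that called 1.41% of all 14374 genes. DESeq2 and limma-voom, which called 5.70% and 3.10% of all genes, also called 0 of the 44. The estimates leaned one way: 43 of 44 log2 fold changes were positive, meaning higher in Ccr2 knockout, against 49.5% of all genes, and the exception was the kinetochore motor Cenpe. Their median was 0.44, with a range from -0.22 to 0.67, beside a median of -0.0034 over all genes. At an unadjusted p under 0.05, 12 of the 44 were higher and 0 lower in edgeR (background 8.05% higher and 7.28% lower), 15 were higher in DESeq2 (background 8.88%) and 13 in limma-voom (background 10.6%). The count of 12 moved with single libraries, from 4 without control library 1 or without knockout library 5, through 5 without control library 2, 6 without control library 5 and 8 without knockout library 1, up to 28 without control library 3. In 0 of 44 genes were the 5 knockout libraries clear of the 5 controls (background 4.70%), and in 26 of 44 all 5 knockout libraries lay above the control median (background 13.0%). The members moved together by library, with control library 5 the lowest for 43 of 44. These counts are therefore not 44 separate observations of the genotype. In bulk libraries, more dividing cells and more of these RNAs per dividing cell cannot be told apart.

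**Figure D1:**
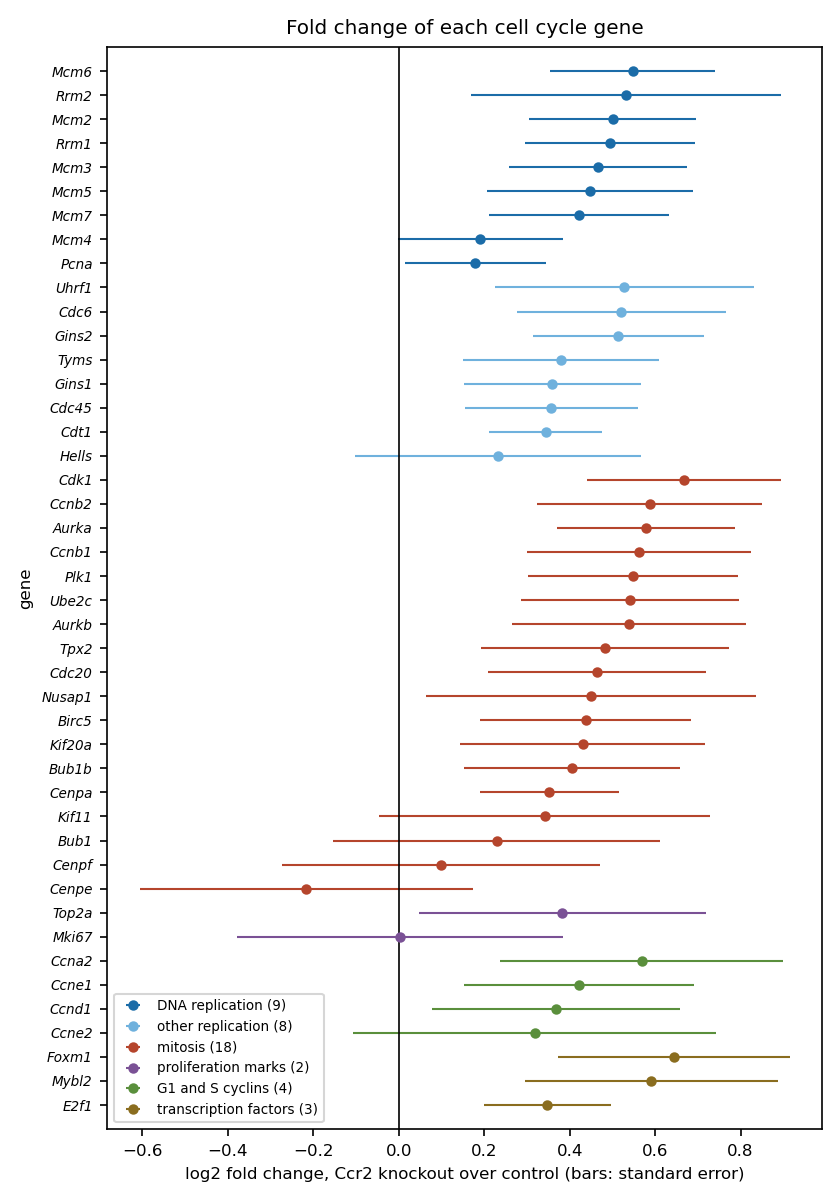
Log2 fold change of each of the 44 cell cycle genes, Ccr2 knockout over control (x axis), by gene and role (y axis and colours); points are edgeR estimates from 5 against 5 libraries and bars are 1 standard error. All points but Cenpe lie at or right of 0, between 0.00 and 0.67, and none passed the adjusted threshold.

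The G1 and S phase cyclins carry a cell into DNA synthesis. Ccnd1, the cyclin D that answers growth signals, stood at 248, 262, 159, 161 and 70.9 CPM in control libraries 1 to 5 and at 229, 265, 257, 179 and 234 CPM in knockout libraries 1 to 5. Control library 5 was low, control libraries 1 and 2 were as high as the knockout libraries, and the groups overlapped. The log2 fold change was 0.37 (standard error 0.29, edgeR adjusted p = 0.569). Ccna2, the cyclin that serves both S phase and mitotic entry, stood at 49.6, 57.2, 81.0, 62.1 and 21.4 CPM in controls and 124, 69.9, 63.1, 49.9 and 94.98 CPM in knockout libraries. Knockout library 1 was the highest and control library 5 the lowest, and the log2 fold change of Ccna2 was 0.57 (standard error 0.33, edgeR adjusted p = 0.436). The cyclin E genes, whose products start S phase with Cdk2, had log2 fold changes of 0.42 (Ccne1) and 0.32 (Ccne2), and that of Ccne2 changed to -0.10 without knockout library 1. The 4 cyclins thus had positive estimates with a median of 0.40, 0 of them at an unadjusted p under 0.05 (background 8.05% higher).

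Of the 3 transcription factors, Foxm1, which drives the mitotic genes, had the smallest p. It stood at 24.3, 25.2, 48.5, 37.7 and 15.2 CPM in controls and 57.5, 40.3, 43.3, 39.3 and 55.6 CPM in knockout libraries. Control library 3 lay inside the knockout range and the other 4 controls lay below it. Its mean was 30.2 ± 13.0 CPM in controls and 47.2 ± 8.68 CPM in knockout libraries (SD, n = 5 each), which is 0.64 on the log2 scale, standard error 0.27 (edgeR adjusted p = 0.291). Mybl2, a partner in the same mitotic programme, had a log2 fold change of 0.59 (edgeR adjusted p = 0.369). E2f1, an activator of replication genes, had 0.35 (edgeR adjusted p = 0.3002), from 52.2 ± 10.2 to 66.4 ± 10.6 CPM (SD, n = 5 each).

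All 9 DNA replication genes had positive log2 fold changes, from 0.18 to 0.55 with a median of 0.47. Of them 4 (Mcm2, Mcm3, Mcm6 and Rrm1) had an unadjusted p under 0.05 (background 8.05% higher). Mcm6, the helicase subunit whose promoter opens with overlapping E2F words, stood at 107, 111, 166, 149 and 84.1 CPM in controls and 181, 196, 127, 208 and 189 CPM in knockout libraries. Knockout library 3 lay among the controls, while the other 4 knockout libraries were above every control library. The log2 fold change of Mcm6 was 0.55 (standard error 0.19, edgeR adjusted p = 0.204). Within the helicase the estimates ran from 0.19 for Mcm4 (53.6 ± 12.9 against 61.2 ± 11.6 CPM) to that of Mcm6, with Mcm2 at 0.50, Mcm3 at 0.47, Mcm5 at 0.45 and Mcm7 at 0.42, each with a standard error between 0.19 and 0.24. The 6 subunits form a single ring around DNA; differences between them were not tested.

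Pcna, the clamp that holds DNA polymerase on its template, had the smallest estimate of the 9. It stood at 207, 220.4, 259, 226 and 143 CPM in controls and 281, 264, 176, 228 and 246 CPM in knockout libraries. Knockout libraries 3, 4 and 5 lay inside the control range, and the log2 fold change was 0.18 (standard error 0.17, edgeR adjusted p = 0.631), an interval of 2 standard errors from -0.15 to 0.51. Rrm1, the large subunit of the enzyme that makes deoxynucleotides, had means of 110.3 ± 33.9 CPM in controls and 155 ± 20.1 CPM in knockout libraries (SD, n = 5 each; log2 fold change 0.50, standard error 0.20, edgeR adjusted p = 0.268). Rrm2, its S phase-restricted small subunit, had a similar estimate of 0.53 with a wider standard error of 0.36, with libraries from 15.8 CPM in control library 5 to 119 CPM in knockout library 1.

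The 8 other replication genes had 8 positive estimates with a median of 0.37. Of them 2 (Cdt1 and Gins2) had an unadjusted p under 0.05 (background 8.05% higher). Cdt1, which loads the helicase on origins, stood at 41.6, 43.6, 46.7, 43.1 and 35.1 CPM in controls and 48.6, 46.0, 44.7, 69.0 and 58.3 CPM in knockout libraries. Its controls were the most even of the group, and knockout libraries 4 and 5 were high; the log2 fold change was 0.34 (standard error 0.13, edgeR adjusted p = 0.248). Gins2, a subunit of the active helicase, had a log2 fold change of 0.51, Uhrf1, which guides maintenance methylation behind the fork, 0.53, and the loader Cdc6 0.52. The thymidylate synthase gene Tyms had 0.38, the helicase factors Gins1 and Cdc45 both 0.36, and the chromatin remodeller Hells 0.23, with edgeR adjusted p-values from 0.248 to 0.779 over the 8.

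Among the 18 mitotic genes 17 had positive estimates, with a median of 0.46. Of the 18, 4 (Cdk1, Aurka, Ccnb2 and Plk1) had an unadjusted p under 0.05 (background 8.05% higher). Cdk1, the kinase that triggers mitosis and the member with the smallest p of all 44, stood at 41.4, 48.7, 59.9, 50.2 and 23.0 CPM in controls and 86.0, 56.6, 63.2, 64.3 and 84.3 CPM in knockout libraries. Only knockout library 2 lay inside the control range, below control library 3. The log2 fold change of Cdk1 was 0.67 (standard error 0.23, edgeR adjusted p = 0.184). Its cyclin partners had estimates of 0.56 (Ccnb1) and 0.59 (Ccnb2). The mitotic kinases Aurka (22.2 ± 7.34 against 33.2 ± 4.83 CPM, edgeR adjusted p = 0.213), Plk1 and Aurkb had 0.58, 0.55 and 0.54.

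The genes of mitotic exit and the spindle had similar estimates. Ube2c and Cdc20, which work with the ligase that destroys cyclin B, had log2 fold changes of 0.54 and 0.46. The spindle assembly genes Tpx2, Nusap1 and Kif11 had 0.48, 0.45 and 0.34, the checkpoint kinases Bub1b and Bub1 had 0.40 and 0.23, and Birc5 and Kif20a, which act at the central spindle, had 0.44 and 0.43. Cenpa, the histone that marks centromeres, had 0.35 and was the only member of the 44 whose lowest library was not control library 5.

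Cenpe and Cenpf, a kinetochore motor and a kinetochore protein, did not share this pattern. Cenpe stood at 17.2, 17.7, 37.1, 29.7 and 7.19 CPM in controls and 19.7, 24.8, 12.2, 12.03 and 25.0 CPM in knockout libraries. Control library 3 was the highest and control library 5 the lowest of all 10, and the log2 fold change was -0.22 (standard error 0.39, edgeR adjusted p = 0.829), which became 0.06 without control library 3. The estimate for Cenpf was 0.10 with a standard error of 0.37, and it turned negative without control library 5 or without knockout library 5 (-0.10 and -0.11).

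Mki67, the gene of the Ki-67 protein that coats mitotic chromosomes, had the same mean in both groups, 143 ± 73.2 CPM in controls and 143 ± 48.0 CPM in knockout libraries (SD, n = 5 each). Its libraries stood at 120.2, 126, 244, 178 and 46.8 CPM in controls and 182, 174, 102, 80.9 and 177 CPM in knockout. The control libraries spanned the widest range, with library 3 above and library 5 below every knockout library. The log2 fold change of Mki67 was 0.00 (standard error 0.38, edgeR adjusted p = 0.998), an interval from -0.76 to 0.77 that includes the estimate of every other member, and its sign turned with single libraries. Top2a, the topoisomerase that untangles sister chromatids, stood at 111, 127, 202, 151 and 49.7 CPM in controls and 256, 168, 122, 109 and 181 CPM in knockout libraries. Knockout library 1 was the highest and control library 5 the lowest, the groups overlapped, and the log2 fold change was 0.38 (standard error 0.34, edgeR adjusted p = 0.613).

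**Figure D2:**
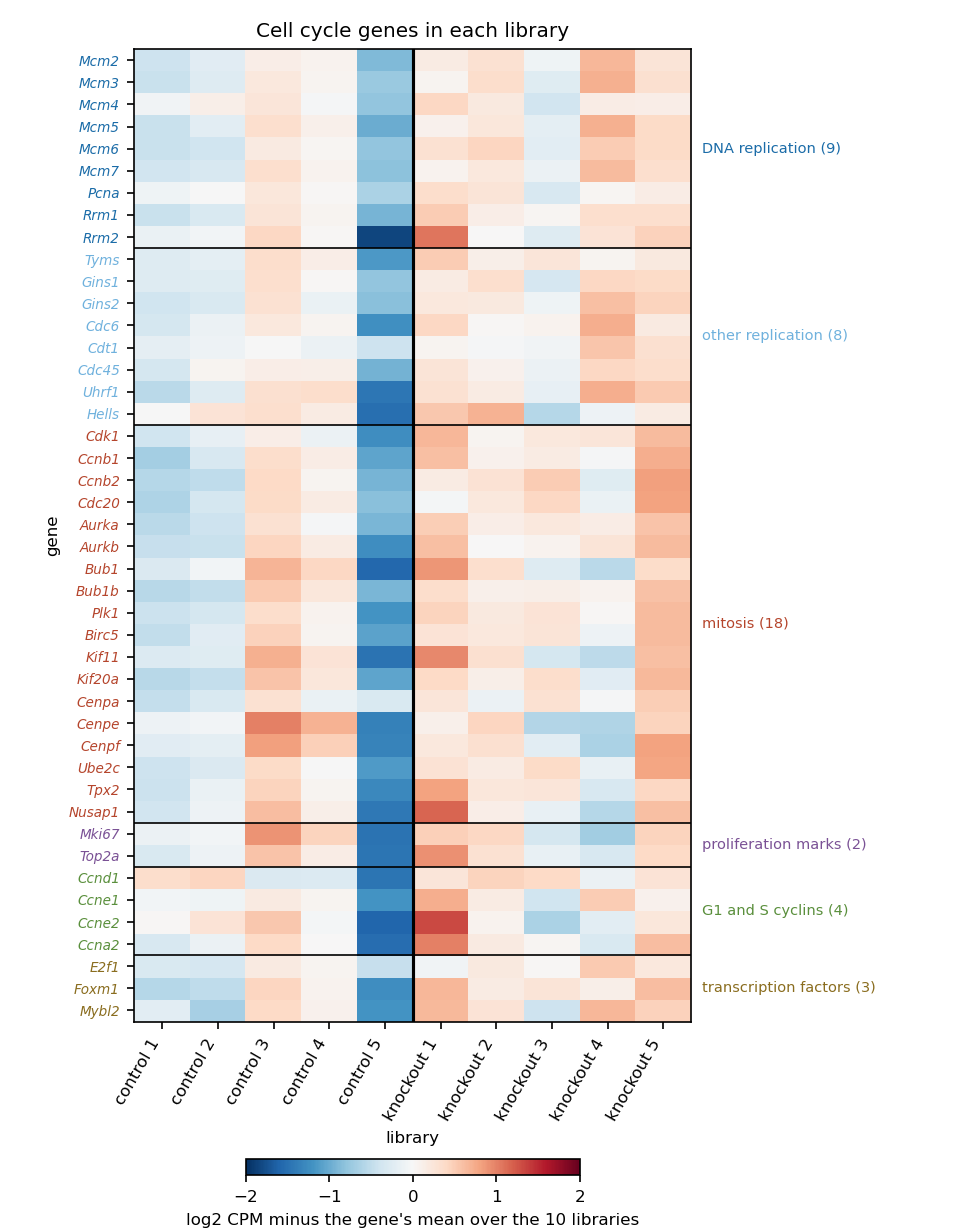
Log2 CPM of each of the 44 genes (rows, by role) in each of the 10 libraries (columns), minus the gene's mean over the 10 libraries; red is above and blue below that mean. Control library 5 is the lowest library for 43 of the 44 genes, knockout library 4 is high for replication genes and not for mitotic ones, and control library 3 is above the mean for all 18 mitotic genes.

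The spread between libraries was shared by nearly all members. Control library 5 was the lowest of the 10 in 43 of 44 genes (it was the lowest for 11.6% of all genes tested), and 41 of 44 genes had a smaller coefficient of variation in knockout than in control libraries. The highest library was knockout library 1 for 15 genes, knockout library 4 for 13, knockout library 5 for 11, control library 3 for 3 and knockout library 2 for 2. The markers of other cells also moved in control library 5: besides its high neutrophil and monocyte marker sums, Sox10, a factor of melanoma cells, stood at 3.57 CPM there against 13.9 to 40.5 CPM in the other 9 libraries, while Mitf, another factor on the melanoma list, was at its highest there, 28.1 CPM against 13.1 to 23.4 CPM. Of the 11 melanoma markers 6 were under 1 CPM in every library, Sox10 and Mitf held most of the sum, Gpr143 was at 0 in all and Mlana in all but control library 1, and the summed level of the 11 was 34.2 to 59.0 CPM in controls and 33.2 to 60.7 CPM in knockout libraries. The sums over 13 neutrophil markers were 163 to 581 CPM in controls and 116 to 217 CPM in knockout libraries, with all 10 tested markers lower. None of the 10 passed the threshold (smallest edgeR adjusted p = 0.0936, Csf3r), and 7258 of all 14374 genes had lower estimates. The sums over 10 classical monocyte markers were 2232 to 6101 CPM in controls and 1656 to 4067 CPM in knockout libraries. Of these markers 9 of 10 were lower, and the other, Fn1, was the most abundant (log2 fold change 0.15). Among the lower ones, Vcan and Hp did not pass the threshold (edgeR adjusted p = 0.232 and 0.115). Ly6c2 did, at 59.0 to 109 CPM in controls and 1.21 to 8.41 CPM in knockout libraries (edgeR adjusted p = 0.00353). The T and NK cell sums were 94.0 to 236 and 91.5 to 269 CPM, with 13 of 14 tested markers lower, none of them past the threshold. The other, Cd4, was the most abundant and rose (log2 fold change 1.13, edgeR adjusted p = 0.0223). Cd4 stood at 47.2 to 75.2 CPM in controls and 86.5 to 184 CPM in knockout libraries, so it weighed heavily in these sums. Cd3e, among the lower markers, stood at 1.77 to 6.30 CPM in controls and 0.0978 to 7.20 CPM in knockout libraries, highest in knockout library 2. The sums of 7 endothelial markers were 32.8 to 84.6 and 19.6 to 31.6 CPM. Those of 9 fibroblast markers were 769 to 2422 CPM in controls and 435 to 3796 CPM in knockout libraries, highest in knockout library 3. The sums of 9 B and plasma cell markers were 170 to 439 and 89.3 to 860 CPM, highest in knockout library 5. For 9 dendritic cell markers they were 13.7 to 39.3 and 6.08 to 14.5 CPM. The part of these cells in the cell cycle values was not tested.

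Scores taken as the mean log2 CPM of a role's genes in each library put replication and mitosis side by side. The replication score of 9 genes was 6.47, 6.61, 7.05, 6.84 and 5.85 in control libraries and 7.13, 7.03, 6.59, 7.24 and 7.10 in knockout libraries. Knockout libraries 1, 4 and 5 lay above every control and knockout library 3 lay below the control median. The means were 6.57 ± 0.46 and 7.02 ± 0.25 (SD, n = 5 each), a difference of 0.45 log2 units that exceeded the pooled SD of 0.37. The mitotic score of 18 genes was 4.78, 4.94, 5.72, 5.38 and 4.09 in control libraries and 5.70, 5.40, 5.33, 5.03 and 5.84 in knockout libraries. All 5 knockout libraries lay above the control median and 1 lay above every control. The means were 4.98 ± 0.62 and 5.46 ± 0.32, a difference of 0.48 against a pooled SD of 0.49. Since the genes were chosen with results known, no p is given for a score.

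Both differences were smaller without control library 5, at 0.27 for replication and 0.26 for mitosis. Without control library 3 they were 0.57 and 0.66, and with each of the close control pairs summed into 1 sample 0.58 and 0.63. The close pairs differed in mitotic score, at 4.78 and 4.94 in control libraries 1 and 2 and at 5.72 and 5.38 in control libraries 3 and 4. Control library 4 was nearer to knockout libraries 2 and 3 (5.40 and 5.33) than to control library 3.

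**Figure D3:**
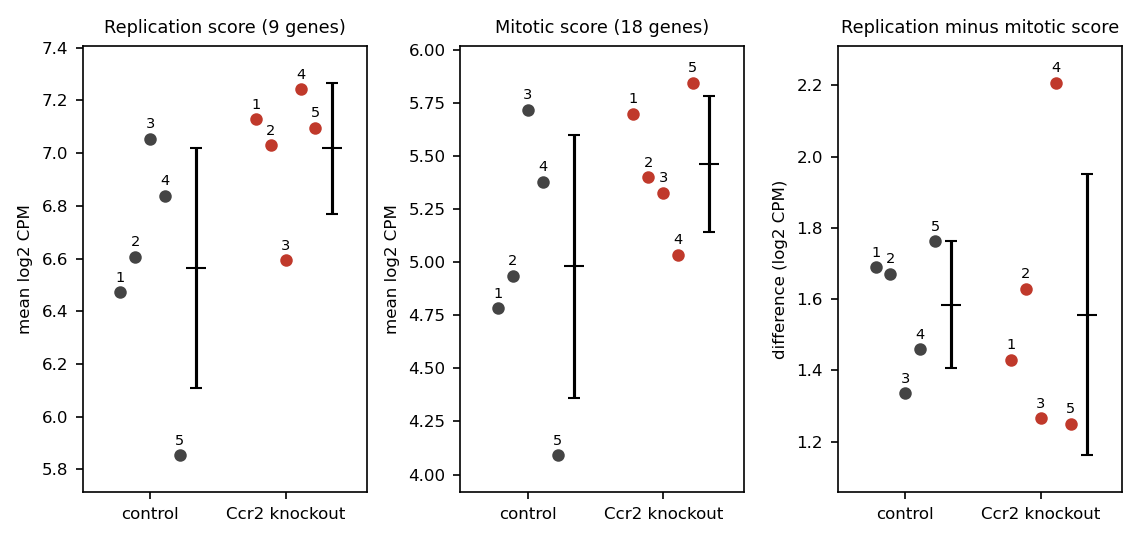
Replication score, mitotic score and their difference (y axes, log2 CPM) in control and Ccr2 knockout macrophages; points are libraries with their numbers, and bars show the mean and SD of 5 libraries. Knockout library 4 has the highest replication score, 7.24, and the lowest mitotic score of its group, 5.03, and so the largest difference, 2.21.

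Between the genotypes the replication genes differed by about as much as the mitotic genes. The replication score minus the mitotic score was 1.69, 1.67, 1.34, 1.46 and 1.76 in control libraries and 1.43, 1.63, 1.27, 2.21 and 1.25 in knockout libraries. The groups overlapped, with means of 1.58 ± 0.18 and 1.56 ± 0.39 (SD, n = 5 each) and a difference of -0.03. Knockout library 4 stood above all others, with 9 of 9 replication genes above their mean over the libraries but 5 of 18 mitotic genes. Across the 17 replication genes it was the highest library for 11 and across the 18 mitotic genes for 0, where knockout library 5 was the highest for 11. The 90 further replication and mitotic genes, which share these libraries but none of the genes, had the same library at the top: their replication minus mitotic score was 0.70 in knockout library 4, -0.08 to 0.47 in control and -0.10 to 0.13 in the other knockout libraries. Without knockout library 4 the replication minus mitotic difference between the groups was -0.19.

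Exonic length was set beside the estimates of the 44 genes, without a test of their relation. The 3 genes with more than 7000 exonic bases, Cenpe (7910), Mki67 (10061) and Cenpf (11130), had the 3 lowest log2 fold changes of the 44. The other 41 ran from 0.18 to 0.67 with a median of 0.45. Among those 41 the lowest was Pcna, with 1518 exonic bases, and the highest Cdk1, with 4466. Over all tested genes, the longest 1434 genes (from 6962 bases) had a median deviation from each gene's own mean of 0.17 log2 units in knockout library 1, -0.13 in knockout library 3 and -0.19 in knockout library 4, against 0.00 to 0.08 in the 5 controls. In the shortest 1435 genes knockout library 1 stood at -0.27. The median log2 fold change of those longest genes was -0.06. The 7 other cell cycle genes over 7000 bases had a median of 0.33 beside 0.29 for all 122 other cell cycle genes. They were spread widely: Knl1 (8542 bases) had -0.34, the lowest of the 50 other mitotic genes. Pole (7423 bases) had 0.63, the highest of the 40 other replication genes. The part of transcript length in the values of Mki67, Cenpe and Cenpf was not tested. Median exonic length was 3371 bases for the 9 replication genes and 3412 for the mitotic genes, and without Cenpe and Cenpf the mitotic difference was 0.53.

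**Figure D4:**
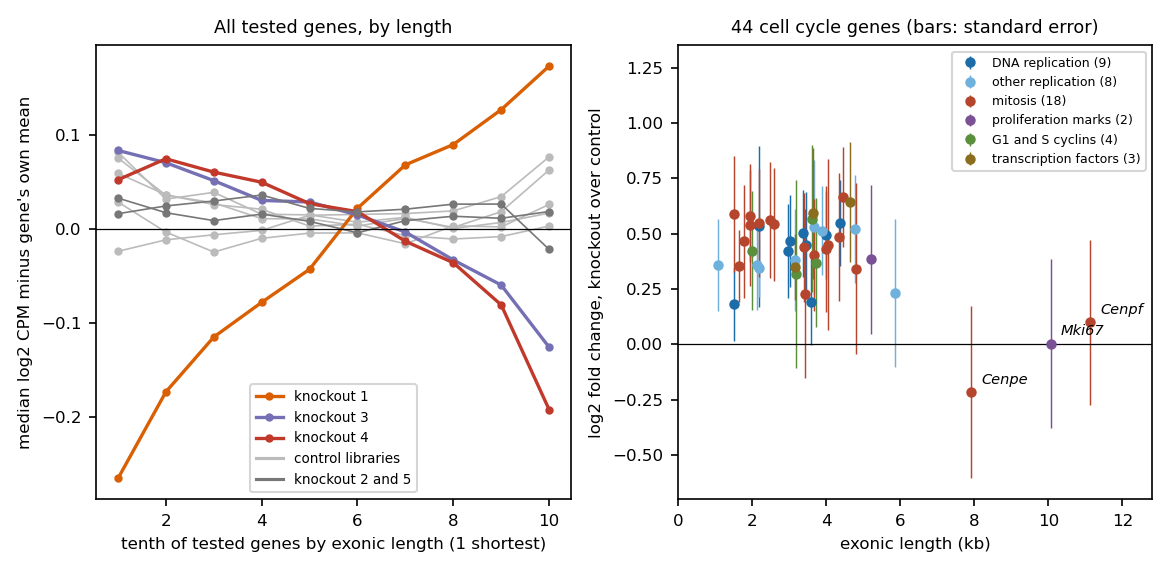
Left, median log2 CPM minus each gene's own mean (y axis) in 10 bins of all tested genes by exonic length (x axis, 1 the shortest), 1 line per library; right, log2 fold change of the 44 genes (y axis, bars 1 standard error) against exonic length in kb (x axis), coloured by role. Knockout library 1 runs up to 0.17 and knockout libraries 3 and 4 down to -0.13 and -0.19 in the longest bin, and the 3 longest genes have the lowest fold changes.

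Another 122 cell cycle genes, listed by role but with earlier results of these data known, served as a wider view of the pathway. Of these 103 had positive and 19 negative log2 fold changes, with a median of 0.29 (positive in 49.5% of all genes). The threshold was passed by 1, the inhibitor gene Cdkn2a, against 0.870% of all genes called higher. At an unadjusted p under 0.05 in edgeR, 19 were higher and 1 lower (background 8.05% higher and 7.28% lower). The 40 replication genes had 37 positive estimates and a median of 0.26, and those with the smallest p were the chromatin assembly factor Chaf1b (0.55), the single-strand binding subunit Rpa2 (0.53) and the origin subunit Orc1 (0.58). The 50 mitotic genes had 42 positive estimates and a median of 0.34, and the smallest p belonged to the condensin subunit Ncaph (0.46), Cdca3 (0.59) and the cyclin F gene Ccnf (0.60). The 25 G1 genes had 21 positive estimates and a median of 0.27, and the smallest p belonged to Wee1 (0.72), the kinase that holds Cdk1 inactive, the phosphatase Cdc25b (0.65), which opposes it, and the E2F partner Tfdp1 (0.27). Control library 5 was the lowest library for 93 of the 122 (background 11.6%). In 3 genes, Wee1, Cdkn2a and E2f6, the knockout libraries all lay above the controls (background 2.69%); E2f6, a repressor of the E2F family, was named for this count after its values were seen.

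The 7 genes of cyclin-dependent kinase inhibitors, which stop the cycle, were split, with 3 positive and 4 negative estimates. Cdkn2a, whose locus gives both an inhibitor of Cdk4 and Cdk6 and the ARF protein, was at 0.823, 0.939, 1.09, 1.09 and 0.389 CPM in controls and 4.44, 6.498, 3.12, 5.97 and 8.09 CPM in knockout libraries. Every knockout library lay above every control library. Cdkn2a rose by 2.70 log2 units, standard error 0.34 (edgeR adjusted p = 0.00422), and the counts do not tell its 2 products apart. The call was lost when the close control pairs were summed (edgeR adjusted p = 0.0613), with a fold of 2.82 log2 units there and of 2.52 to 2.85 over all alternatives.

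The next 3 inhibitors by p were named after their values were seen, and none passed the threshold. Cdkn2c, an inhibitor of Cdk4 and Cdk6, stood at 47.8 ± 13.5 CPM in controls and 78.2 ± 16.4 CPM in knockout libraries (SD, n = 5 each; log2 fold change 0.71, edgeR adjusted p = 0.128), and DESeq2 called it and Wee1 (adjusted p = 0.0312 and 0.0384). Cdkn1b, the gene of p27 that holds cells in quiescence, stood at 70.8 ± 7.36 and 54.7 ± 7.07 CPM (log2 fold change -0.37, edgeR adjusted p = 0.133). Cdkn1a, the p53 target p21, stood at 282, 325, 282, 270.0 and 528 CPM in controls and 247, 355, 251, 155 and 139.6 CPM in knockout libraries. Control library 5, the lowest library for 43 of the 44 cell cycle genes, was the highest for Cdkn1a, whose log2 fold change was -0.56 (edgeR adjusted p = 0.365).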

How the data were processed

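The genes, lists and comparisons were chosen with earlier results of these data known. RNA was enriched for polyadenylated transcripts and made into directional libraries, per the labels' protocols, and STAR and GRCm39 are the aligner and build that the submitters' processing notes name, with no version or annotation. As deposited, the values were read counts per gene, and the reverse-strand column was used, which held 96.2% to 96.5% of strand-assigned counts. Multimapping reads were listed as 0, so reads shared by near-identical copies are not in these counts; unmapped reads were 6.87% to 8.07%, and such rows stayed out of library sizes. Of 55359 identifiers 52083 matched a symbol. The test was run in R 4.3.3 with edgeR 4.0.16 (filterByExpr with a minimum count of 10, TMM, quasi-likelihood F-test, Benjamini-Hochberg over all genes tested, adjusted p under 0.05). A standard error is the log2 fold change over the square root of F. CPM used TMM-scaled totals, and log2 CPM a prior count of 2. Exonic lengths came from GENCODE on GRCm38. All 44 genes could be named; of the other lists, those past the threshold or the 3 with the smallest p were. Alternatives were DESeq2 1.42.0 and its size factors, no composition factor, limma-voom (limma 3.58.1) with sample weights, other filters, unstranded counts, a replicate block, close libraries summed and each library left out. A combined count table with no sample names was not used. Figures used matplotlib 3.10.9.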

Additional observations from a re-analysis of the deposited data

Results flagged for a closer look

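In each group of 5 libraries, the highest and lowest library of each of the cell cycle genes and scores was set against the other 4, over 94 groups in all; chance gives such an outlying library in about 1 of 20 groups, and 2 were found. Ccne1, a cyclin E gene, stood at 6.27 CPM in control library 5, far below the 13.7 to 16.4 CPM of the other control libraries. Ccne2, the other cyclin E gene, stood at 14.98 CPM in knockout library 1, far above the 3.83 to 6.99 CPM of the other knockout libraries.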

How the results depend on the processing

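The 44 genes had 0 calls under every alternative run, with the smallest adjusted p 0.0780 (Cdk1, DESeq2), and their median log2 fold change ran from 0.31 without control library 5 to 0.62 without control library 3. With each library left out in turn the replication score difference ran from 0.27 to 0.57, the mitotic one from 0.26 to 0.66 and their difference from -0.19 to 0.05. The calls among the 122 other cell cycle genes, 1 by the test reported, were 3 by DESeq2 (Cdkn2a, Cdkn2c, Wee1), 0 with the close control pairs summed, 0 with knockout libraries 4 and 5 summed as well (Cdkn2a adjusted p = 0.136) and 0 with the replicate block (adjusted p = 0.0715), while the Cdkn2a log2 fold change stayed between 2.52 and 2.85. The replicate number as a block left 0 of the 44 and 55 of all genes called; with 5 complete pairs it cannot move the score differences (0.45, 0.48 and -0.03), so these are no check; same-numbered libraries correlated from -0.53 to 0.34, so the numbers did not pair the samples, and 1 of 5 control libraries correlated best with its own number. Over all genes, 203 calls became 820 by DESeq2, 446 by limma-voom, 29 and 8 with close libraries summed, and 62 to 267 with 1 library left out. The Mki67 log2 fold change turned negative with limma-voom (-0.049) and with the filter of 1 CPM in 5 libraries (-0.0032), and over left-out libraries it ran from -0.21 to 0.28. Over the same left-out libraries the Cenpe log2 fold change ran from -0.43 to 0.063, the Cenpf log2 fold change from -0.11 to 0.37 and the Ccne2 log2 fold change from -0.10 to 0.50. The causes of these changes were not tested. The median standard error of the 44 genes was 0.26 log2 units, from 0.13 (Cdt1) to 0.43 (Ccne2).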
